A study of Mus musculus with 16 samples.

Results

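The 5 genes described here carry out steps of ketone body synthesis and export in the liver. They are Acat1, Bdh1, Bdh2, Slc16a1 and Slc16a6, and they were chosen by symbol from the 50559 gene symbols of the deposited expression table. All 5 were among the 18335 genes with enough counts to be tested.

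The livers came from male C57BL/6J mice that were 6 weeks old at the start and spent 10 weeks on their diet, with treatment over the last 4 weeks. All groups received an siRNA every 2 weeks and a gavage, with methylcellulose as vehicle, so the controls carried both procedures. The study asked how knocking down (KD) ketohexokinase (KHK), which phosphorylates fructose, compares with blocking its kinase activity. The LFD group, whose diet the labels call chow, and the HFD group, on a diet with 60% of its energy from fat, received a luciferase control siRNA at 10 mg/kg and vehicle. The HFD + siRNA group received siRNA against KHK at 20 mg/kg, linked to GalNAc, a sugar that directs it to hepatocytes, together with vehicle. Mice of the HFD + Inhib group were injected with control siRNA and given the small molecule KHK inhibitor PF-06835919 at 15 mg/kg per dose, which reaches the whole body. Each group had 4 libraries, 1 per mouse, with totals between 24317111 and 35820234 expected counts (median 29570114). By the study's methods mice were injected with saline or insulin before tissue collection, and the labels do not say which mouse had which.

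Ketone bodies are made in liver mitochondria when fatty acids are oxidised faster than the citric acid cycle takes up their acetyl-CoA. Acetoacetyl-CoA is extended and then cleaved to acetoacetate, part of which is reduced to β-hydroxybutyrate, and both acids leave the hepatocyte through monocarboxylate transporters. The liver has little of the transferase that would let it burn these fuels itself, so other organs use them.

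The target gene and the tissue were examined first. Khk stood at 214, 233, 349 and 269 CPM (counts scaled to library size with TMM factors) in LFD replicates 1 to 4 and at 251, 322, 233 and 251 CPM in HFD. It was at 11.8, 9.14, 18.1 and 11.5 CPM in HFD + siRNA and at 112, 152, 94.6 and 120 CPM in HFD + Inhib. Every HFD + siRNA library lay below every other library, and every HFD + Inhib library lay between the HFD + siRNA group and the others. Compared with HFD, the log2 fold change of Khk was -4.38 ± 0.23 (SE) after KD and -1.14 ± 0.20 after the inhibitor (adjusted p = 1.9e-08 and 0.00075, edgeR quasi-likelihood test with Benjamini-Hochberg adjustment, which applies to every adjusted p that follows). The difference between HFD and LFD was -0.01 (adjusted p = 0.98). Alb, the plasma protein of hepatocytes, was the most abundant of 7 hepatocyte markers in all groups, with means of 57200 CPM in LFD, 51000 in HFD, 53500 after KD and 29900 with the inhibitor.

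With HFD 3 of 5 rose (Acat1, Bdh1 and Slc16a1) and 1 fell (Bdh2) against LFD, where 9.58% of all tested genes rose and 8.80% fell (18.4% in either direction). After KD 0 of 5 rose and 0 fell against HFD by edgeR, where 5.20% of all genes rose and 6.55% fell (11.7% together). DESeq2 also called 0 there, and 2 (Acat1 and Slc16a1) had an unadjusted p under 0.05. With the inhibitor 2 rose (Acat1 and Slc16a1) and 1 fell (Slc16a6) against HFD, where 9.80% rose and 8.42% fell (18.2% together). Directly compared, 2 members were higher with the inhibitor than after KD and 2 were lower, where 17.3% of all genes were higher and 16.6% lower (33.8% together). Against LFD, 2 members were higher and 0 lower after KD, with 4.75% of all genes higher and 3.88% lower (8.63% together). Bdh2 lay at the threshold there and passed as lower under 7 other settings, which gave 3 members called. For the inhibitor group against LFD, 3 were higher and 1 lower, with 18.8% higher and 18.2% lower (36.9% together). The median log2 fold change of the members was 0.51 with HFD, -0.10 after KD and -0.03 with the inhibitor, against -0.01, 0.02 and 0.00 over all tested genes. These comparisons share libraries, and a difference between the effect of the diet and that of the KD was not tested.

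The starts of 3 members were listed in the RefSeq promoter table (GRCm38.p6), and the 250 bases before each start are printed because these genes took different courses across the groups. Acat1 and Slc16a6 were not in that table. For Bdh1 the first of its 2 listed starts is shown. The capitals mark CACGTG, an E box.
Slc16a1, chr3:104638414-104638663, plus strand: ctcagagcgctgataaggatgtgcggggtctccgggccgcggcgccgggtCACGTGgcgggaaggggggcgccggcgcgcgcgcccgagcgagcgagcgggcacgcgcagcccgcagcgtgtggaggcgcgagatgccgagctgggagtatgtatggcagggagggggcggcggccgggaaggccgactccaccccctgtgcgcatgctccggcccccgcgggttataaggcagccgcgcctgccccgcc
Bdh1, chr16:31422047-31422296, plus strand: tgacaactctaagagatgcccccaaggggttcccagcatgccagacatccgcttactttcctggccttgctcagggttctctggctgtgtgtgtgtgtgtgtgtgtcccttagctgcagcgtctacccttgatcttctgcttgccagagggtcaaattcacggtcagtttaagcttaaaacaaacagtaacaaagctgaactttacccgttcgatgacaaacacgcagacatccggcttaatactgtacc
Bdh2, chr3:135280971-135281220, plus strand: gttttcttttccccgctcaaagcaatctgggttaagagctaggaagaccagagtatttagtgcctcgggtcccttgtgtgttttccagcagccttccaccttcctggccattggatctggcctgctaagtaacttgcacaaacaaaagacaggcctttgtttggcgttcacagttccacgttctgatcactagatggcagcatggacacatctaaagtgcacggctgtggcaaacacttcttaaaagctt

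The Slc16a1 stretch is 76.4% G and C, against 49.6% for the printed stretch of Bdh1, 60.8% for that before its other start and 48.0% for Bdh2, and it holds 1 E box that starts 200 bases upstream. Both strands of the same 250 bases were searched in 32851 promoters, of which 6.02% held CACGTG. The short site of many nuclear receptors, AGGTCA, was in 14.0% of them, and 2 such sites with 1 base between (AGGTCANAGGTCA, the DR1 arrangement) in 0.0335%, and neither was in the listed promoters of these members. These are matches of letters only, and the DR1 search overlaps with the search for the single site.

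Acat1 encodes the mitochondrial thiolase that joins acetyl-CoA units to acetoacetyl-CoA, the first step of ketone body synthesis. Its level was 227, 251, 279 and 244 CPM in LFD, 394, 411, 433 and 388 in HFD, 377, 389, 326 and 314 in HFD + siRNA, and 586, 547, 544 and 543 in HFD + Inhib. The LFD libraries were the lowest and the HFD + Inhib libraries the highest, and neither group overlapped with any other. The HFD and HFD + siRNA libraries shared part of their range. Acat1 rose by 0.70 ± 0.09 on the log2 scale with HFD over LFD (1.62-fold, adjusted p = 0.00015) and by another 0.45 ± 0.09 with the inhibitor over HFD (1.37-fold, adjusted p = 0.0022). After KD the difference from HFD was -0.21 ± 0.09 (95% interval -0.40 to -0.02 before adjustment, adjusted p = 0.14). The treatments differed from each other by 0.66 ± 0.09, with HFD + Inhib higher (adjusted p = 4.7e-05). In RNA from whole liver, more RNA per cell and more cells of a type cannot be told apart.

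Bdh1 encodes the mitochondrial dehydrogenase that converts acetoacetate to β-hydroxybutyrate. Its level was 107, 112, 104 and 112 CPM in LFD, 200, 211, 228 and 232 in HFD, 211, 209, 238 and 234 in HFD + siRNA, and 217, 218, 197 and 220 in HFD + Inhib. All 12 HFD-fed libraries lay between 197 and 238 CPM, and the LFD libraries between 104 and 112. Bdh1 rose by 1.0 ± 0.08 on the log2 scale with HFD over LFD (2.0-fold, adjusted p = 2.9e-06), and it was also higher than in LFD after KD (1.04 ± 0.08, adjusted p = 7.6e-07) and with the inhibitor (0.97 ± 0.08, adjusted p = 1.5e-07). Against HFD, the log2 difference was 0.04 after KD (95% interval -0.12 to 0.20, adjusted p = 0.81) and -0.03 with the inhibitor (-0.19 to 0.13, adjusted p = 0.83). With the correction for GC content and length described below both signs turned, to -0.08 after KD (-0.23 to 0.08) and 0.01 with the inhibitor (-0.15 to 0.17). Exons of Bdh1 and of Gm15743 on the opposite strand overlap over 533 bases, and Gm15743 had a mean between 1.28 and 1.95 CPM per group.

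Bdh2 encodes a cytosolic dehydrogenase with β-hydroxybutyrate as one of its substrates. Its level was 11.5, 11.4, 11.6 and 12.2 CPM in LFD, 8.12, 6.16, 7.28 and 8.01 in HFD, 9.93, 6.96, 7.74 and 7.38 in HFD + siRNA, and 8.23, 4.94, 4.44 and 5.58 in HFD + Inhib. The LFD libraries were above all HFD-fed libraries, whose groups overlapped, and HFD + Inhib replicate 1 stood above the other 3 of its group. Bdh2 fell by 0.66 ± 0.16 on the log2 scale with HFD (adjusted p = 0.012), opposite in direction to Acat1 and Bdh1. Against HFD, the difference was 0.12 after KD (adjusted p = 0.70, and -0.02 without HFD + siRNA replicate 1) and -0.35 ± 0.17 with the inhibitor (adjusted p = 0.17). Without HFD + Inhib replicate 1 the difference with the inhibitor was -0.57 (adjusted p = 0.012). The inhibitor group was below the KD group by 0.47 ± 0.17 (adjusted p = 0.04), a call that was lost in 6 of 8 fits without 1 library. These were the fits without HFD + siRNA replicate 1, 3 or 4 (-0.34, -0.47 and -0.49) and without HFD + Inhib replicate 2, 3 or 4 (-0.39, -0.36 and -0.45). Against LFD, Bdh2 was lower in HFD + Inhib (-1.01 ± 0.17, adjusted p = 0.00024), and in HFD + siRNA the difference of -0.54 ± 0.16 lay at the threshold (adjusted p = 0.05, not called). It was called under 7 other settings, such as DESeq2 (-0.56, adjusted p = 0.016) and the GC and length correction (-0.59, adjusted p = 0.031), and without HFD + siRNA replicate 1 (-0.67, adjusted p = 0.029).

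**Figure D1:**
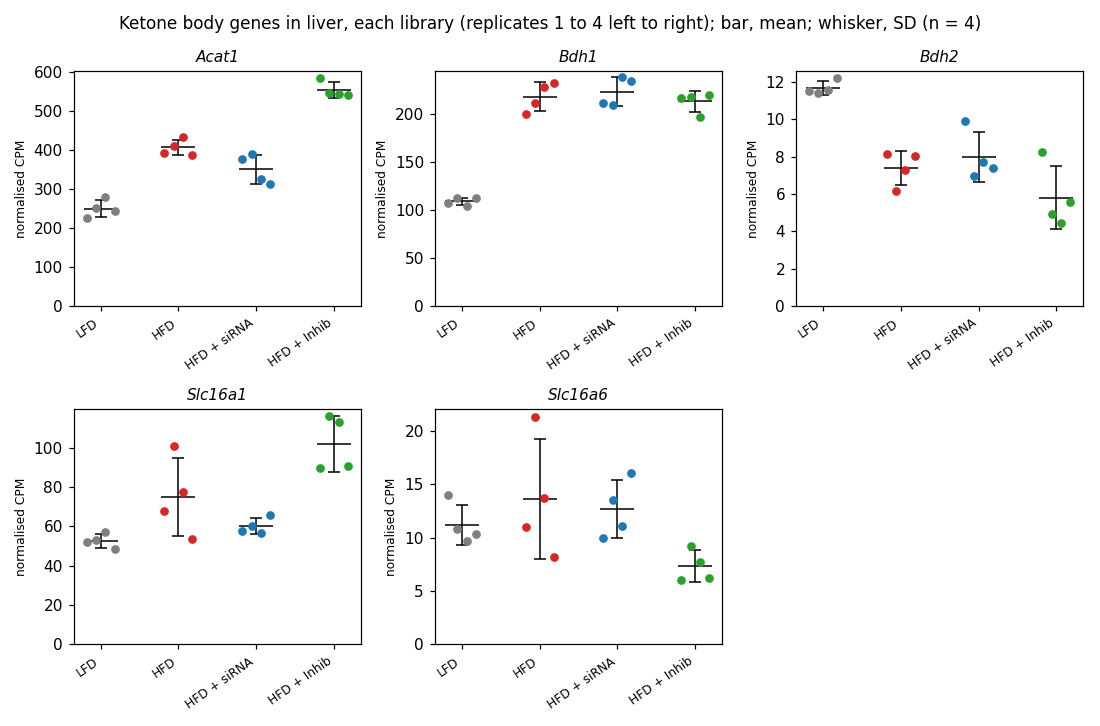
Normalised CPM (vertical axis, from 0) of the 5 members in the 4 groups; points are single libraries, replicates 1 to 4 from left to right, bars the mean and whiskers the SD (n = 4). Acat1 steps up from LFD to HFD to HFD + Inhib, Bdh1 sits between 197 and 238 CPM in all HFD-fed libraries, and HFD replicate 2 is the highest HFD library for both transporters.

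Slc16a1 encodes MCT1, a transporter that moves lactate, pyruvate and ketone bodies together with a proton. Its level was 52.2, 53.0, 57.0 and 48.3 CPM in LFD, 67.9, 101, 77.3 and 53.7 in HFD, 57.8, 60.3, 56.4 and 65.9 in HFD + siRNA, and 89.6, 116, 113 and 90.5 in HFD + Inhib. HFD replicate 4 lay within the LFD range and HFD replicate 2 within the HFD + Inhib range. HFD replicate 4 was below the HFD + siRNA range and the other HFD libraries were above it. The HFD + Inhib libraries did not overlap with those of LFD or HFD + siRNA. HFD + Inhib was higher than HFD + siRNA by 0.77 ± 0.15 on the log2 scale (1.7-fold, adjusted p = 0.00094). HFD + Inhib was also higher than LFD, by a larger difference (0.96 ± 0.15, adjusted p = 0.00014). Slc16a1 also passed with HFD over LFD (0.51 ± 0.15, adjusted p = 0.025) and with the inhibitor over HFD (0.45 ± 0.15, adjusted p = 0.044), with overlapping libraries in both. KD and HFD differed by -0.32 ± 0.15 (adjusted p = 0.17), or by -0.14 with the GC and length correction (adjusted p = 0.66). Without HFD replicate 4 the difference was -0.47 (adjusted p = 0.045), and the 8 fits without 1 library ran from -0.47 to -0.14.

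The calls of Slc16a1 between HFD and LFD and between the inhibitor and HFD were lost in several fits without 1 library, mostly with differences near those over all libraries. In HFD versus LFD the call was lost without LFD replicate 1 (0.52, adjusted p = 0.056), LFD replicate 4 (0.48, adjusted p = 0.052), HFD replicate 2 (0.33, adjusted p = 0.081) or HFD replicate 3 (0.50, adjusted p = 0.062). In HFD + Inhib versus HFD it was lost without HFD replicate 1, 3 or 4 (0.40, 0.46 and 0.31) or HFD + Inhib replicate 2 or 3 (0.38 and 0.39). With the correction for GC content and length, neither call remained (0.32 with adjusted p = 0.19, and 0.37 with adjusted p = 0.11), while the difference between the treatments was 0.50 (adjusted p = 0.024).

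Slc16a6 encodes MCT7, which has been linked to the release of β-hydroxybutyrate from hepatocytes. Its level was 14.0, 10.8, 9.69 and 10.3 CPM in LFD, 11, 21.3, 13.7 and 8.18 in HFD, 9.95, 13.5, 11.1 and 16.1 in HFD + siRNA, and 6.05, 9.26, 7.72 and 6.23 in HFD + Inhib. The HFD + Inhib libraries were below all LFD and HFD + siRNA libraries, and they overlapped with HFD only through its replicate 4. Slc16a6 fell by 0.90 ± 0.24 on the log2 scale with the inhibitor against HFD (adjusted p = 0.016) and was lower by 0.80 ± 0.24 against KD (adjusted p = 0.018). Its direction with the inhibitor was thus opposite to that of Slc16a1. HFD differed from LFD by 0.29 ± 0.24 (adjusted p = 0.43), KD from HFD by -0.10 (adjusted p = 0.83), and the inhibitor from LFD by -0.61 ± 0.24 (adjusted p = 0.059, and -0.74 with 0.041 without HFD + Inhib replicate 2).

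HFD replicate 2 weighed on Slc16a6 as well. Without it the difference between HFD and LFD was -0.02 and that between KD and HFD 0.21, each with the opposite sign. HFD replicate 2 also held low counts of adipocyte markers, given below, and their part in these values was not tested. The difference between the inhibitor and HFD without this library was -0.59 (adjusted p = 0.071). That call was also lost without HFD + Inhib replicate 1 (-0.82, adjusted p = 0.052) or replicate 4 (-0.83, adjusted p = 0.051). The call against KD was lost without HFD + siRNA replicate 4 (-0.65), HFD + Inhib replicate 1 (-0.70) or HFD + Inhib replicate 4 (-0.73). Exons of Slc16a6 overlap on the opposite strand with Amz2 over 1052 bases and with Arsg over 48 bases, and on the same strand with Gm25540 over 49 bases, and whether the counting used the strand is not given in the sources used here. Arsg had means of 21.4 CPM in LFD, 20.5 in HFD, 23.4 after KD and 13.5 with the inhibitor, with 30.3 CPM in HFD replicate 2, and its part in the values of Slc16a6 was not tested. Amz2 was higher after KD than in HFD by 0.34 (adjusted p = 0.027), or by 0.26 with the GC correction (adjusted p = 0.068).

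**Figure D2:**
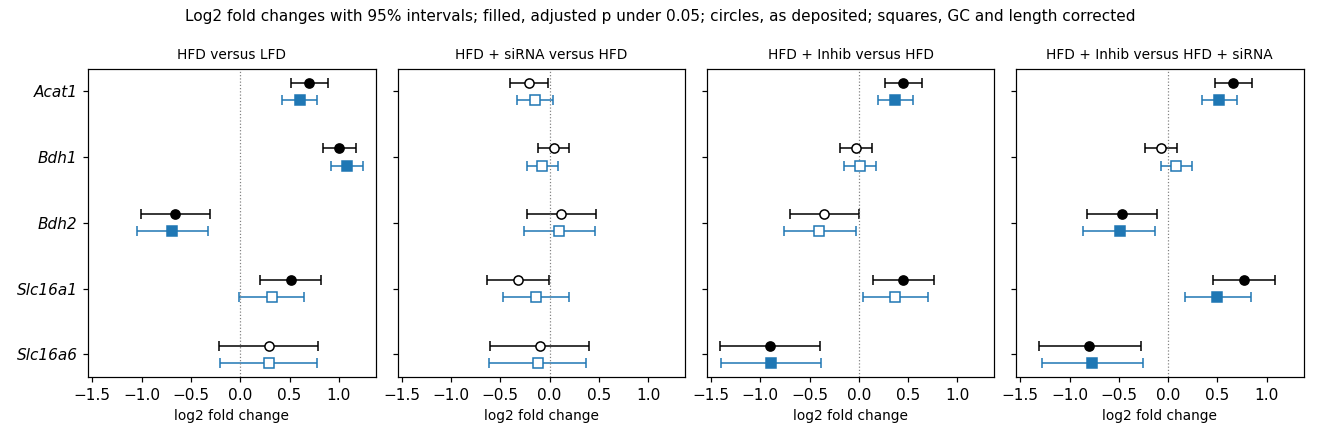
Log2 fold changes (horizontal axis) of the 5 members in 4 comparisons, with 95% intervals before adjustment; circles are the deposited counts, squares the fit corrected for GC content and length, and filled symbols passed the test. Bdh1 lies near 0 in 3 of the panels, and the corrected value of Slc16a1 is nearer to 0 than the uncorrected one in all 4.

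Per kilobase of the longest annotated transcript, the order of levels was the same in the upper places of every group. Mean levels in LFD were 73.5 ± 6.30 CPM per kb for Acat1, 34.3 ± 1.15 for Bdh1, 11.9 ± 0.803 for Slc16a1, 3.72 ± 0.121 for Bdh2 and 2.65 ± 0.453 for Slc16a6 (SD, n = 4). In HFD they were 119 ± 5.93, 68.8 ± 4.80, 16.9 ± 4.50, 2.36 ± 0.287 and 3.21 ± 1.34. Acat1, Bdh1 and Slc16a1 kept their first 3 places in all groups, whereas the SDs of Bdh2 and Slc16a6 overlapped in HFD, after KD (2.55 ± 0.423 and 3.01 ± 0.648) and with the inhibitor (1.85 ± 0.540 and 1.73 ± 0.355).

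Further enzymes of ketone body and acetoacetyl-CoA metabolism were read from a list of 8 genes, of which 6 were tested. With HFD and after KD alike, 0 of the 6 passed by edgeR, where 18.4% and 11.7% of all genes passed. In both comparisons 0 had an unadjusted p under 0.05, and DESeq2 called 0. With the inhibitor 2 rose against HFD and 0 fell, where 9.80% of all genes rose and 8.42% fell. The median log2 fold change was 0.71 over the list and 0.00 over all genes. A difference between these comparisons was not tested. The count with the inhibitor moved to 3 up and 1 down with the GC and length correction, where 1724 of 15858 genes rose and 1568 fell. It moved to 1 without HFD replicate 1, 3 or 4 or HFD + Inhib replicate 3, and to 3 without HFD replicate 2. Against KD 3 were higher with the inhibitor and 1 was lower, where 17.3% of all genes were higher and 16.6% lower.

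Acat2 stood at 82.8, 103, 74.3 and 91.3 CPM in HFD and at 138, 151, 184 and 178 with the inhibitor. Hmgcs1 stood at 477, 808, 598 and 561 CPM in HFD and at 807, 1150, 1760 and 1080 with the inhibitor. The groups did not overlap for Acat2, and for Hmgcs1 they met at HFD replicate 2. Acat2, the cytosolic thiolase of the sterol pathway, rose by 0.89 ± 0.18 (adjusted p = 0.0023) and Hmgcs1, the cytosolic synthase of the same pathway, by 0.97 ± 0.29 (adjusted p = 0.029). Acat2 shares 39.1% of its 50-base words with Acat3, and how far this affects its count was not tested. The call of Hmgcs1 was lost without HFD replicate 1, 3 or 4 (0.87, 0.96 and 0.93) or HFD + Inhib replicate 2 or 3 (0.98 and 0.73). Neither Acat2 nor Hmgcs1 belongs to ketone body production in mitochondria.

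Aacs, which activates acetoacetate for lipid synthesis in the cytosol, passed against KD (1.22 ± 0.35, adjusted p = 0.014), with 1.0 ± 0.35 against HFD (adjusted p = 0.059). With the GC correction Aacs also passed against HFD (1.16, adjusted p = 0.027). Acat3 was lower with the inhibitor than after KD by 0.57 ± 0.12 (adjusted p = 0.0023), but it shares 42.6% of its 50-base words with Acat2, so the division of reads between them is uncertain. Against HFD it had -0.31 (adjusted p = 0.094), or -0.35 with the GC correction (adjusted p = 0.033). Oxct1, the transferase of ketone body use, was scarce at 3.54 to 4.40 CPM per group mean and did not pass in any comparison. Oxct2a and Oxct2b were not tested, with at most 4.79 and 6 counts in any library.

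**Figure D3:**
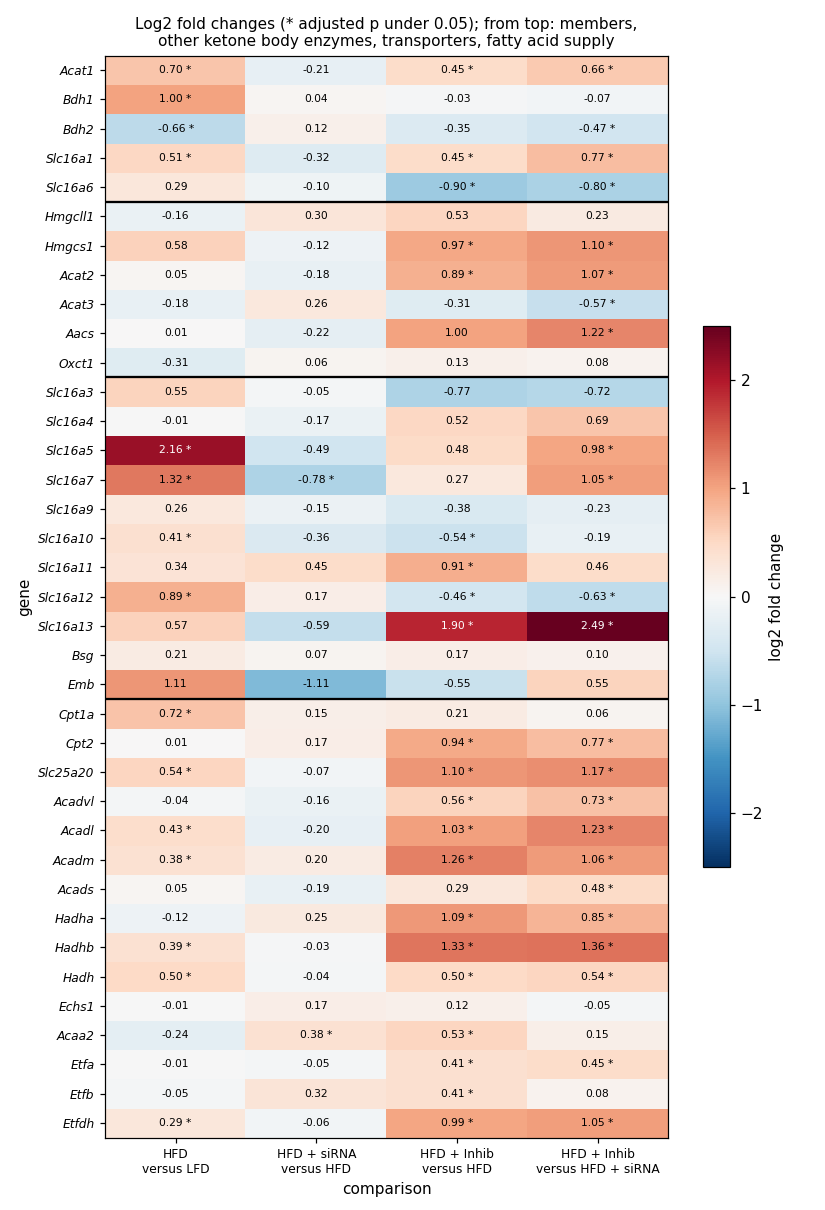
Log2 fold changes (colour and printed value) of the members, the other ketone body enzymes, the monocarboxylate transporters with their chaperones and the genes of mitochondrial fatty acid supply (lines separate the lists) in 4 comparisons; a star marks an adjusted p under 0.05. Most of the starred enzymes and fatty acid genes stand in the columns of the inhibitor, and the transporters show both colours there.

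Of 15 further monocarboxylate transporters and chaperones, 11 were tested. In HFD versus LFD 4 rose and 0 fell, with a median of 0.55 over the list, where 9.58% of all genes rose and 8.80% fell. Slc16a5 (MCT6) rose by 2.16 ± 0.39 (adjusted p = 0.0017), from 9.12, 4.03, 2.07 and 4.82 CPM in LFD to 12.8, 28.2, 21.8 and 25.6 in HFD. Slc16a7 (MCT2), a carrier with a high affinity for pyruvate and ketone bodies, rose by 1.32 ± 0.22 (adjusted p = 0.00097), from 29.7, 57.8, 41.9 and 65.7 CPM to 106, 94.5, 141 and 148. Neither pair of groups overlapped. The other 2 were Slc16a12 (0.89 ± 0.16), which carries creatine, and Slc16a10 (0.41 ± 0.13), which carries aromatic amino acids. The call of Slc16a10 (adjusted p = 0.035) was lost without LFD replicate 1 (0.33) or 3 (0.40) or HFD replicate 1 (0.41), 3 (0.43) or 4 (0.33).

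After KD 0 of the 11 rose against HFD and 1 fell by edgeR, where 5.20% of all genes rose and 6.55% fell, and DESeq2 called 2. The count is near the background. Slc16a7 was lower by 0.78 ± 0.21 (adjusted p = 0.027), at 79.2, 56.7, 83.8 and 65.0 CPM. This difference became -0.30 with the GC correction (adjusted p = 0.30), and it was lost without HFD replicate 3 (-0.70) or 4 (-0.69) or HFD + siRNA replicate 2 (-0.71) or 4 (-0.76). The transcript of Slc16a7 is 37.7% G and C, against a median of 49.4% for tested genes.

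With the inhibitor 2 of the transporters rose and 2 fell against HFD, with a median of 0.17, where 9.80% of all genes rose and 8.42% fell. Slc16a13, whose substrates are less well known, had the largest log2 difference of the 11 at 1.90 ± 0.27 (3.72-fold, adjusted p = 0.00013), from 2.49, 2.90, 2.85 and 2.11 CPM in HFD to 8.44, 8.47, 9.65 and 12.1. Those libraries lay above all libraries of the other groups. Slc16a11 rose by 0.91 ± 0.25 (adjusted p = 0.017, lost without HFD replicate 2 at 0.85 or HFD + Inhib replicate 2 at 0.78). Slc16a10 fell by 0.54 ± 0.13 (adjusted p = 0.007) and Slc16a12 by 0.46 ± 0.15 (adjusted p = 0.049). The Slc16a12 call was lost in 6 of 8 fits without 1 library, with values from -0.48 to -0.39. These were the fits without HFD replicate 2, 3 or 4 and without HFD + Inhib replicate 1, 2 or 3.

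Between the treatments 3 of the 11 transporters and chaperones were higher and 1 was lower in HFD + Inhib, with a median of 0.46, a count close to the background of 33.8% over all genes. With the GC correction 5 were higher and 1 was lower, where 2344 of 15858 genes were higher and 2168 lower. Slc16a13 was higher by 2.49 ± 0.28 (adjusted p = 8.2e-06) and Slc16a7 by 1.05 ± 0.21 (adjusted p = 0.0015), or by 0.52 with the GC correction (adjusted p = 0.033). Slc16a5 was higher by 0.98 ± 0.36 (adjusted p = 0.046), which did not pass without HFD + siRNA replicate 2 (0.80), 3 (1.10) or 4 (0.94) or HFD + Inhib replicate 1 (1.01), 2 (0.87) or 4 (0.87). Slc16a12 was lower by 0.63 ± 0.15 (adjusted p = 0.0052). Bsg, the chaperone that brings MCT1 to the cell surface, was abundant at 116 ± 13.1 CPM per kb in LFD and 150 ± 16.7 in HFD + Inhib, and passed in HFD + Inhib versus LFD alone (0.38 ± 0.11, adjusted p = 0.013). With the GC correction it passed in 5 of the 6 comparisons, and the exception was HFD + siRNA versus HFD. Slc5a8, Slc5a12, Slc16a8 and Slc16a14 were not tested, and Slc5a12 had 0 counts in all libraries.

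**Figure D4:**
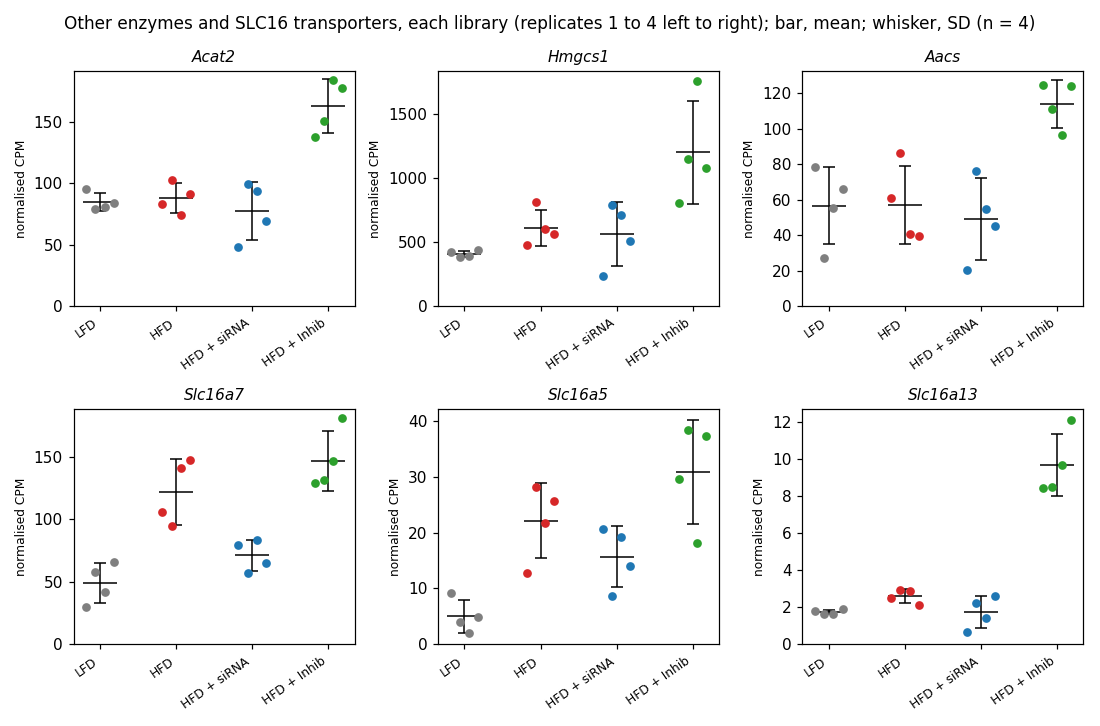
Normalised CPM (vertical axis, from 0) of 3 further enzymes (top) and 3 further transporters (bottom) in the 4 groups; points are single libraries, replicates 1 to 4 from left to right, bars the mean and whiskers the SD (n = 4). For Acat2, Aacs and Slc16a13 every HFD + Inhib library is above all other libraries, whereas Slc16a5 has 1 HFD + Inhib library at 18.1 CPM, within the range of the HFD group.

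Genes that supply acetyl-CoA from fatty acids in mitochondria were read from a list of 15. Of these, 7 rose and 0 fell with HFD, where 9.58% of all genes rose and 8.80% fell, with medians of 0.05 over the list and -0.01 over all genes. The largest differences were those of Cpt1a, the gatekeeper of mitochondrial entry (0.72 ± 0.10, adjusted p = 0.00033), the carnitine carrier Slc25a20 (0.54), Hadh (0.50) and Acadl (0.43). With the GC correction 6 rose and 0 fell, where 1253 of 15858 genes rose and 1324 fell. Hadhb went from 0.39 to 0.01 and Etfdh from 0.29 to 0.13, and neither passed, while Etfb did (0.26, adjusted p = 0.028). The call of Etfdh was also lost in 6 of 8 fits without 1 library. With the inhibitor 12 rose and 0 fell against HFD, with a median of 0.56, where 9.80% of all genes rose and 8.42% fell. Hadhb rose by 1.33 ± 0.10, Acadm by 1.26 ± 0.10, Slc25a20 by 1.10 ± 0.11 and Hadha by 1.09 ± 0.08, while Cpt1a did not pass (0.21 ± 0.10, adjusted p = 0.17). Against KD 11 were higher and 0 lower, where 17.3% of all genes were higher and 16.6% lower. Hadhb differed by 1.36, Acadl by 1.23, Slc25a20 by 1.17 and Acadm by 1.06. With the GC correction 13 were higher, where 2344 of 15858 genes were higher. The order also changed, with 1.15 for Slc25a20, 1.07 for Acadl, 1.03 for Acadm, 0.97 for Hadha and 0.92 for Hadhb. Hadhb shares 18.1% of its words with Gm13910, and how far this affects its count was not tested.

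After KD 1 of the 15 passed against HFD, Acaa2, with 0.38 ± 0.12 (adjusted p = 0.049), where 11.7% of all genes passed. That call was lost in each of the 8 fits without 1 library (0.32 to 0.41) and with the GC correction (0.22, adjusted p = 0.18), under which Acadvl was lower instead (-0.30, adjusted p = 0.037). The next largest differences were those of Etfb (0.32, or 0.01 with the GC correction), Hadha (0.25) and Acadm (0.20), which did not pass, and DESeq2 called 3 genes of the list. Etfb shares 43.8% of its words with Gm45233.

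Among 8 regulators of ketogenesis, 2 rose and 0 fell with HFD, where 18.4% of all genes passed, and the median over the list was 0.04. This count is near the background. Ppara, the nuclear receptor that drives hepatic fatty acid oxidation and ketogenesis, rose by 0.81 ± 0.13 (adjusted p = 0.00076), and Fgf21, a hormone induced by it, by 2.26 ± 0.49 (adjusted p = 0.0058). Sirt3 and Foxa2 had differences of -0.29 and -0.23. After KD 0 passed against HFD by edgeR, where 11.7% of all genes passed. DESeq2 called 1, and 1 (Ppargc1a) had an unadjusted p under 0.05. The largest differences by edgeR were those of Ppargc1a (-0.80, adjusted p = 0.062) and Fgf21 (-0.76, adjusted p = 0.30), and Creb3l3 and Sirt3 were at 0.14. With the inhibitor 2 of the regulators rose and 0 fell against HFD, also near the background of 18.2%, with a median of 0.18. Sirt5, a mitochondrial desuccinylase, rose by 0.53 ± 0.10 (adjusted p = 0.0016), and Creb3l3 by 0.36 ± 0.12, at the threshold (adjusted p = 0.05). The call of Creb3l3 was lost in 7 of 8 fits without 1 library (0.27 to 0.40), the exception being the fit without HFD + Inhib replicate 3. With the GC correction Creb3l3 rose by 0.46 (adjusted p = 0.0019). Against KD it had 0.22 (adjusted p = 0.18), or 0.46 with the GC correction (adjusted p = 0.0015). Fgf21 (-0.95, adjusted p = 0.17), Foxa2 (-0.39) and Ppara (0.29 ± 0.13, adjusted p = 0.12) did not pass, and Ppara passed without HFD replicate 4 (0.42, adjusted p = 0.021). Against KD, Sirt5 (0.62) and Ppara (0.42, adjusted p = 0.017) were higher with the inhibitor, the latter not without HFD + Inhib replicate 4 (0.37, adjusted p = 0.054), and Ppargc1a (0.53) and Foxa2 (-0.40) did not pass.

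The genes whose pattern over the 16 libraries was most like each member were found by the mean absolute difference of centred log2 CPM among 12599 genes. For Acat1 these were Khdrbs3 (0.0912), Hadh (0.104) and Dnajc28 (0.108), where the median over all genes was 0.417. Hadh had means of 215 CPM in LFD, 305 in HFD, 297 after KD and 431 with the inhibitor, the same order as Acat1. For Bdh1 they were Cpt1a (0.112), Epm2a (0.139) and Mpp1 (0.145), and Cpt1a stood at 312, 516, 572 and 598 CPM. For Bdh2 they were Amdhd1 (0.124), Slc25a12 (0.144) and Hal (0.148), of which Amdhd1 and Hal are enzymes of histidine breakdown. Hal stood at 449, 261, 322 and 197 CPM. Slc16a1 was followed most closely by Anxa5 (0.139), Gpr39 (0.141) and Crls1 (0.152), and Slc16a6 by P3h1 (0.189), Eipr1 (0.190) and Gmppb (0.190). With the GC and length correction, 6 of these 15 genes were still among the 3 closest, which were Hadh for Acat1, Cpt1a and Epm2a for Bdh1, Amdhd1 and Hal for Bdh2 and Eipr1 for Slc16a6.

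A pair of library properties moved with the groups. Log2 fold changes were related to the GC content of transcripts over 8342 genes, with Spearman's rho of -0.509 with HFD, 0.490 after KD, -0.275 with the inhibitor (both against HFD) and -0.526 between the treatments. The longest transcripts of Slc16a1 and Acat1 are 42.9% and 45.5% G and C, those of Bdh2, Slc16a6 and Bdh1 48.0%, 49.0% and 52.1%. With the correction Acat1 rose by 0.60 with HFD (adjusted p = 0.00028) and by 0.37 with the inhibitor (adjusted p = 0.0047), and Bdh1 rose by 1.08 with HFD (adjusted p = 1.1e-06).

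The second property was the level of cell type markers. The summed level of the 7 hepatocyte markers was 79500 ± 9010 CPM (SD, n = 4) in LFD, 68000 ± 6750 in HFD, 73500 ± 5120 after KD and 42600 ± 1620 with the inhibitor. Of the 7, 3 fell with the inhibitor against HFD, where 8.42% of all genes fell. Over the groups in that order the sums were 280, 271, 319 and 209 CPM for 7 macrophage markers (led by Clec4f), 317, 390, 418 and 294 for 6 stellate cell markers (Reln), and 341, 295, 334 and 287 for 6 endothelial markers (Stab2). The 5 bile duct markers (Spp1) summed to 33.4, 38.0, 36.1 and 36.7 CPM. The 4 lymphocyte markers (Cd79a) summed to 2.29, 2.68, 1.74 and 1.17 CPM, and muscle markers (Tnnt2) to 0.784, 0.469, 0.272 and 0.317, with Ckm, Mb and Myh7 at or under 3 counts in every library. With HFD against LFD, Apoa1 (-0.50) and Serpina1a (-0.54) of the hepatocyte markers fell, while Reln (0.38), Spp1 (0.62) and Cfd (2.29, adjusted p = 0.034) rose. The median was 0.16 over the stellate cell markers and -0.40 over the bile duct markers. Krt19 (-2.60), Krt7 (-0.76), Epcam (-0.40) and Sox9 (-0.08) of the latter had negative differences that did not pass. Of the adipocyte markers only Cfd was tested. Adipoq, Plin1 and Retn had lower means in HFD than in LFD and Lep a higher one, all from at most 21 counts. Apoa1 and Spp1 did not pass with the GC correction (-0.22 and 0.49). Under it the hepatocyte marker Fgb also fell (-0.50, adjusted p = 0.0095). The macrophage marker Cd68 (0.47, adjusted p = 0.028) and the stellate cell marker Colec11 (0.29, adjusted p = 0.045) also rose under it. Serpina1a rose after KD by 0.51 (adjusted p = 0.0071), and no other marker of these lists passed there, while with the GC correction 1 stellate cell marker also did. Against HFD, 2 macrophage, 2 stellate cell and 2 lymphocyte markers fell with the inhibitor and 1 endothelial marker rose. Of all genes, 8.42% fell and 9.80% rose there. With the GC correction 4 hepatocyte, 2 macrophage, 3 stellate cell, 2 lymphocyte and 1 bile duct marker fell and 0 endothelial markers rose. Under it 1568 of 15858 genes fell and 1724 rose. Against KD, 4 hepatocyte, 5 macrophage, 2 stellate cell and 1 endothelial marker were lower with the inhibitor, and 1 endothelial marker and Cfd were higher. Of all genes, 16.6% were lower and 17.3% higher there. With the GC correction 5 hepatocyte, 3 macrophage, 3 stellate cell and 0 endothelial markers were lower, and 1 endothelial marker and Cfd were higher. Under it 2168 of 15858 genes were lower and 2344 higher. Among adipocyte markers Cfd rose with the inhibitor to a mean of 34.5 CPM, while Adipoq, Lep, Plin1 and Retn were at or under 3 counts in each of those libraries. The adipocyte markers summed to 0.952, 2.87, 7.43 and 34.6 CPM over the groups. In HFD, Lep, Adipoq and Plin1 had counts in replicate 2 alone (0.539, 0.257 and 0.231 CPM). Cfd was at 6.70 CPM there and at 0.797 to 1.79 in the other HFD libraries. LFD replicates 3 and 4 also held Adipoq (0.478 and 0.231 CPM) and Plin1 (0.448 and 0.198). The part of all these markers in the results of the 5 members was not tested.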

How the data were processed

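Liver RNA of 16 mice was measured, 4 per group, and samples were grouped by their labels. Values are expected counts, unscaled, in a single table that the authors deposited with gene symbols as names. Of all its values, 15.1% were not whole. The submitters' processing notes name STAR, RSEM and the build mm39, with versions not given in the sources used here. The study's methods name a probe assay, HTG EdgeSeq, which would not give such values, so the assay behind the table is uncertain.

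Counts were rounded, filtered by filterByExpr (minimum count 10, minimum total 15) and scaled by TMM. All 6 comparisons came from 1 fit of edgeR's quasi-likelihood test over 18335 genes with Benjamini-Hochberg adjustment and a threshold of 0.05 (R 4.3.3, edgeR 4.0.16, limma 3.58.1). The common dispersion was 0.038. Replicates were separate mice, and no pair of libraries within a group agreed within sampling noise (chi-square per gene 20.6 to 154 over 24 pairs). Log2 CPM used a prior count of 2, and a group was at the floor when all its libraries held at most 3 counts. The scripts were tested on simulated data.

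The alternatives were DESeq2 1.42.0, RLE size factors, no filter, an average log2 CPM floor of 1, only the 2 groups compared, the replicate number as a block, a correction for GC content and length, both together, each library left out in turn, and an adjusted p under 0.01. The correction is a smooth trend with 5 degrees of freedom per library, entered as offsets, over the 15858 genes (86.5%) matched to GENCODE M21. Transcript properties, overlaps and shared 50-base words are from that annotation (GRCm38), and promoters from RefSeq (GRCm38.p6). Neither is the submitters' build, so they were matched by symbol only.

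Named were Khk, the members, the genes of the enzyme and transporter lists that passed in 1 of the first 4 comparisons or were at the floor, the 4 largest differences in each of the other 2 lists, and the 3 genes most like each member. Oxct1, Oxct2a, Oxct2b, Bsg, Slc5a8, Slc16a8, Slc16a14, Acadvl, Etfdh, the cell type markers and the overlapping genes are named outside that rule, after their values were seen. The members and lists were chosen with earlier results of these data known. Some genes of the lists are not reported here, and the lists were counted without them.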

Additional observations from a re-analysis of the deposited data

Results flagged for a closer look

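Of the 20 member and group combinations, 2 had 1 library far from the other 3, and about 1 in 20 would be marked by chance. Acat1 stood at 586 CPM in HFD + Inhib replicate 1, while the other libraries of that group lay between 543 and 547. Bdh1 stood at 197 CPM in HFD + Inhib replicate 3, below the 217 to 220 of the others. Without these libraries, no call of Acat1 or Bdh1 against HFD changed, with log2 differences between 0.42 and 0.48 for Acat1 and between -0.07 and 0.01 for Bdh1 over all fits that left out 1 library.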

How the results depend on the processing

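Of the log2 fold changes of the members, 215 of 240 under other settings and 208 of 240 without 1 library kept their direction and their side of the threshold. Counts of all genes and members called, of list genes called over all comparisons together and of most alike genes kept were compared under other settings. Of these, 108 of 119 stayed within 1.5 times the reported count. Without 1 library, 81 of 96 counts of all genes and members called did so. Of the remaining values, which hold the list gene counts of single comparisons, 676 of 736 and 621 of 712 stayed the same. Without 1 library, the count of fatty acid supply genes after KD moved in 8 of 8 fits. That of the regulators with the inhibitor against HFD moved in 6 of 8. With an adjusted p under 0.01, the genes called were 1287 with HFD, 689 after KD, 1733 with the inhibitor (both against HFD), 3711 between the treatments, 566 for KD against LFD and 4123 for the inhibitor against LFD. The members called at that threshold were 2, 0, 1, 2, 2 and 4 in the same order. With only the 2 groups compared, 808 genes were called for KD against LFD. In those 2-group fits Slc16a1 had 0.51 with HFD (adjusted p = 0.065) and 0.43 with the inhibitor (0.11), and Bdh2 had -0.46 between the treatments (0.097, and -0.45 with 0.063 without a filter).

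With the GC and length correction, Slc16a1 had 0.32 with HFD and 0.37 with the inhibitor, and Bdh1 changed sign to -0.08 after KD, 0.01 with the inhibitor and 0.08 between the treatments. Bdh2 in KD against LFD passed under 7 settings, with -0.56 by DESeq2 (adjusted p = 0.016), -0.56 with RLE factors (0.044), -0.54 with the CPM floor (0.044), -0.54 with only the 2 groups (0.041), -0.56 with the block (0.02), -0.59 with the correction (0.031) and -0.61 with both (0.0089). Slc16a6 in the inhibitor group against LFD passed by DESeq2 (-0.61, 0.037), with only the 2 groups (-0.62, 0.021) and with the block (-0.64, 0.044). Khk with HFD against LFD changed sign with the CPM floor (0.01), the block (0.00), the correction (0.21) and both (0.22), without a call, and 6 of 15 most alike genes were kept with the correction. The cause of these shifts was not tested.

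The labels give no pairing of mice by replicate number. Correlations of same-numbered libraries ran from -0.132 to 0.336 over 24 pairs, and in no comparison did every library correlate best with its own number. Between HFD + Inhib and HFD they were all positive (0.0605, 0.107, 0.336 and 0.0857), against a mean of -0.0489 for different numbers. Such values cannot exclude a pairing. The replicate block called 3299, 2080, 3341, 6197, 1469 and 6683 genes in the 6 comparisons, against 3370, 2154, 3339, 6204, 1582 and 6767. With the block and the correction together, Slc16a1 had 0.30 with HFD and 0.38 with the inhibitor (adjusted p = 0.19 and 0.083), Bdh1 -0.07 after KD, 0.01 with the inhibitor and 0.09 between the treatments, and Bdh2 -0.42 with the inhibitor (0.039).

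Leaving out 1 library gave 2001 to 3691 genes called with HFD (lowest without LFD replicate 3), 1100 to 1981 after KD (lowest without HFD replicate 3), 2532 to 3050 with the inhibitor, 4934 to 6251 between the treatments, 965 to 1456 for KD against LFD (lowest without HFD + siRNA replicate 3) and 5477 to 6830 for the inhibitor against LFD. The members called numbered 3 to 4, 0 to 1, 2 to 3, 2 to 4, 2 to 3 and 4 to 5 in these comparisons. Slc16a1 ran from 0.33 to 0.65 with HFD, from -0.47 to -0.14 after KD and from 0.31 to 0.63 with the inhibitor. Slc16a6 ran from -0.02 to 0.47, from -0.30 to 0.21 and from -1.08 to -0.59 in these 3, from -0.92 to -0.65 between the treatments and from -0.74 to -0.49 for the inhibitor against LFD. Khk with HFD ran from -0.12 to 0.15. Bdh1 ran from -0.01 (without HFD + siRNA replicate 3 or 4) to 0.06 after KD and from -0.07 to 0.01 with the inhibitor (without its replicate 3). Bdh2 ran from -0.02 to 0.17 after KD, from -0.57 to -0.24 with the inhibitor, from -0.67 to -0.34 between the treatments and from -0.67 to -0.50 for KD against LFD. The depth leaves Bdh2 and Slc16a6 with at least 127 and 171.22 counts per library, and with 4 mice a group a difference that did not pass is not shown to be absent.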
